A study of Rattus norvegicus with 16 samples.

Results

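The expression of 10 genes of the NF-kappaB pathway was examined in PCCl3 cells, a differentiated rat thyroid follicular cell line, after silencing of *Pax8*. The genes are the subunits *Rela*, *Relb*, *Nfkb1* and *Nfkb2*, the inhibitors *Nfkbia* and *Nfkbib*, the receptor-proximal regulators *Traf2* and *Birc3*, and the adhesion molecule genes *Icam1* and *Vcam1*. They were taken by name, and their probes are those whose transcript accession resolved to these symbols. This held for 6 of the 10 genes, with 8 of the 41012 probes of the array. *Relb*, *Nfkb1*, *Nfkbia* and *Traf2* had no probe matched to them and were not analysed here.

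RNA of PCCl3 cells that had received an siRNA to *Pax8* (siPax8 cells) was hybridized on Agilent rat arrays together with RNA from wild type cells (wt) or with RNA from cells given a scrambled siRNA (siScramble). Each comparison comprised 8 arrays from 4 biological replicates, with the dyes exchanged between both arrays of a replicate. Both siRNAs were used at 10 ng/ml with Lipofectamine and RNA was isolated after 48 hours. The cells called wild type in the labels are listed in the study's methods as lipofectamine-treated, and all groups are 1 cell line. The labels do not say whether both comparisons used the same siPax8 samples. Values are log2 ratios of siPax8 over control cells, so a positive value is a higher level in siPax8 cells. A change was called at an adjusted p under 0.005 by limma, and a gene was called when each of its probes passed in 1 direction.

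NF-kappaB is a family of dimeric transcription factors held in the cytoplasm by IkappaB proteins. Receptors for cytokines and microbial products signal through TRAF and cIAP proteins to the IkappaB kinases, after which IkappaB is degraded and the dimers enter the nucleus and bind kappaB sites in DNA. Adhesion molecules, chemokines and the pathway's own inhibitors and subunits are among its known targets, and in thyroid epithelium *Icam1* is known as an inducible surface ligand for leukocyte integrins.

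The upstream sequences of the adhesion molecule genes and of the subunit gene with the clearest change show where letters of a kappaB site lie near the start of each gene. The RefSeq promoter table (GRCr8) held 8 of the 10 genes. The 250 bases before the start were searched on both strands for the kappaB decamer consensus and for the shorter core GGAAATTCC, which can also lie within a decamer. Of 33469 promoters, 3.54% held the decamer and 0.287% the core. *Nfkb2* (chr1:255108274-255108373, plus strand), *Icam1* (chr8:27829595-27829694, plus strand) and *Vcam1* (chr2:206742822-206742921, minus strand) had 1 match each, shown in capitals within 100 bases.
Nfkb2: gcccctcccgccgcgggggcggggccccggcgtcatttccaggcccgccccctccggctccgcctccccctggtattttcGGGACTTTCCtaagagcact
Icam1: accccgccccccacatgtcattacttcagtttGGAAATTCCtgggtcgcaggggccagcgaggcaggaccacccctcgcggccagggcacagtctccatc
Vcam1: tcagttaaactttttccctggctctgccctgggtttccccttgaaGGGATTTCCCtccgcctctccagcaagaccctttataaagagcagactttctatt
The match of *Nfkb2* began 20 bases and that of *Vcam1* 93 bases before the start, and both fitted the decamer. The match of *Icam1* began 218 bases before the start and fitted the core only. Of the other promoters in the table, that of *Nfkbia* held 1 decamer match and those of *Rela*, *Nfkb1*, *Nfkbib* and *Traf2* held neither. These are matches of letters, and no binding was measured on the arrays.

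In siPax8 cells *Icam1* and *Birc3* were higher than in wt cells, by 31.2% and 22.1%, and 1 of the 2 probes of *Nfkb2* was higher by 31.1%. No member was called against siScramble cells, where *Icam1* was higher in all 4 replicates by 13.9% on average but lay just outside the threshold. The subunit *Rela* and the inhibitor *Nfkbib* did not pass the test in either comparison, and *Vcam1* was not well above background on any array. Thus 2 of 6 members were called higher and 0 lower against wt cells, where 16.7% of all named genes and 15.3% of all probes were called. Against siScramble cells 0 of 6 were called, where the background was 2.99% of named genes and 2.11% of probes. At an adjusted p under 0.05 by limma, 1 member, *Icam1*, differed from siScramble cells, as did 3673 of all 41012 probes. An unmoderated test at 0.005 called 0 members and 0 of all probes, so it does not set the members apart. With each gene taken as the mean of its probes, and *Vcam1* included, the median log2 ratio of the 6 members was 0.14 against wt and 0.015 against siScramble cells, beside -0.0052 and -0.0034 over all 8899 named genes. With so few members these shares and medians describe the genes and set the group apart from no other. RNA was taken from whole cultures, so fewer cells that express a gene and less RNA per cell cannot be told apart.

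**Figure D1:**
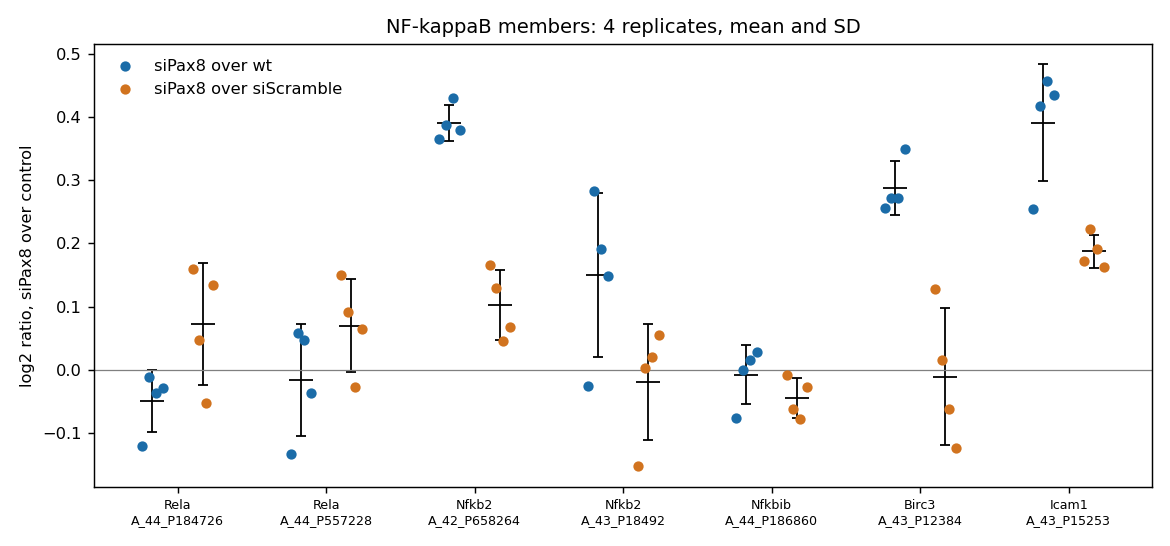
Log2 ratio of siPax8 over control cells (vertical axis) for the 7 member probes above background, with 1 point per replicate, a bar for the mean and an error bar of 1 SD (n = 4). Blue points are ratios over wt and orange points over siScramble cells. The wt points of Birc3, Icam1 and the Nfkb2 probe A_42_P658264 all lie above 0, from 0.25 to 0.46. For each of these probes they lie above all siScramble points of the same probe.

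The labels were checked with *Pax8* itself (A_43_P12538). Its log2 ratios to wt cells were -0.84, -0.57, -0.59 and -0.26 in replicates 1 to 4 (limma adjusted p = 0.000472), and to siScramble cells -0.58, -0.29, -0.12 and -0.0070 (adjusted p = 0.143). *Pax8* was therefore lower in every replicate, but the reduction against siScramble cells did not pass the threshold and was close to absent in replicate 4. Of 8 thyroid follicular markers with a probe, all were above background in all conditions, among them *Tg*, *Slc5a5* and *Tshr*. Of these markers, which include *Pax8* itself, 7 were called lower against wt and 1 against siScramble cells. The mean ratio to siScramble cells was below 0 for 7 of the markers and above 0 for *Slc5a5* (0.073). *Slc5a5* (-0.68), *Dio1* (-0.58 and -0.54), *Duox2* (-0.54) and *Hhex* (-0.48) were also lower in siScramble than in wt cells. These passed the threshold by limma in the difference between the comparisons. *Tg*, *Tshr*, *Foxe1* and *Pax8* did not, although *Pax8* did with same-numbered replicates paired (adjusted p = 0.00171). Spots well above background made up 50.96% to 59.5% of an array in either dye and no spot of a member was saturated. Precision is limited by how few arrays there are.

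*Rela* encodes the transactivating subunit of the most common NF-kappaB dimer, and both of its probes are assigned to the transcript NM_199267. Against wt cells probe A_44_P184726 gave log2 ratios of -0.12, -0.012, -0.038 and -0.029 (mean -0.050, 95% interval -0.12 to 0.020, adjusted p = 0.326). Probe A_44_P557228 gave -0.13, 0.058, 0.048 and -0.037 (mean -0.017, 95% interval -0.10 to 0.069, adjusted p = 0.845). The replicates lay on both sides of 0 with the second probe and slightly below it with the first, and with both the interval included 0.

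Against siScramble cells the first *Rela* probe gave 0.16, 0.047, -0.053 and 0.13 (mean 0.072, adjusted p = 0.399). The second gave 0.15, 0.091, -0.027 and 0.064 (mean 0.069, adjusted p = 0.327). Replicate 3 was the lowest with both probes and the only one below 0. The sign of *Rela* depended on the dye. With siPax8 RNA in Cy5 the means of the probes were -0.13 and -0.13 against wt and -0.037 and -0.046 against siScramble cells, and with siPax8 RNA in Cy3 they were 0.028, 0.092, 0.18 and 0.19 in the same order.

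*Nfkb2* encodes a precursor protein whose processing releases the subunit of the non-canonical pathway, and its unprocessed form acts as an IkappaB. Its probes, both assigned to NM_001008349, did not give the same result. Against wt cells probe A_42_P658264 gave 0.37, 0.39, 0.43 and 0.38, a mean of 0.39 ± 0.028 (SD, n = 4; adjusted p = 1.54e-05). All replicates were well above 0 and the spread between them was small. Probe A_43_P18492 gave -0.026, 0.28, 0.19 and 0.15, a mean of 0.15 ± 0.13 (SD, n = 4; adjusted p = 0.0441), with replicate 1 just below 0. The gene was therefore not called, although it would be if its probes were averaged before the fit (mean 0.27, adjusted p = 0.000397) or if replicate 1 were left out, when the second probe rose to 0.21 (adjusted p = 0.00182).

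Against siScramble cells the first *Nfkb2* probe gave 0.17, 0.13, 0.045 and 0.068 (mean 0.10, 95% interval 0.031 to 0.17, adjusted p = 0.0918). The second gave -0.15, 0.0028, 0.020 and 0.054 (mean -0.019, 95% interval -0.11 to 0.072, adjusted p = 0.872). The first probe was above 0 in all 4 replicates but its change did not pass the threshold, and the second was spread around 0. On the scale of normalized log2 intensity the first probe measured 10.20 ± 0.059 in wt, 10.54 ± 0.059 in siScramble, and 10.59 ± 0.031 or 10.64 ± 0.053 in siPax8 cells (SD, n = 4) on the arrays with wt or siScramble RNA. Levels in wt cells, 10.11 to 10.24 over the replicates, lay below all others, whereas siScramble (10.50 to 10.63) and siPax8 levels (10.55 to 10.70) overlapped.

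*Nfkbib* encodes an IkappaB protein that retains the dimers in the cytoplasm (A_44_P186860, NM_030867). Its log2 ratios were -0.076, -0.00039, 0.016 and 0.028 against wt cells (mean -0.0083, 95% interval -0.078 to 0.061, adjusted p = 0.911). Against siScramble cells they were -0.0092, -0.063, -0.078 and -0.028 (mean -0.045, 95% interval -0.11 to 0.017, adjusted p = 0.432). The values against siScramble cells were all slightly below 0, and neither comparison passed the threshold.

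The near-zero mean of *Nfkbib* arose from opposite values in the dye orientations. With siPax8 RNA in Cy5 the ratios were 0.093, 0.13, 0.16 and 0.13 against wt and 0.19, 0.053, 0.053 and 0.12 against siScramble cells. With siPax8 RNA in Cy3 they were -0.25, -0.13, -0.12 and -0.074 against wt and -0.20, -0.18, -0.21 and -0.18 against siScramble cells. The orientations did not overlap in either comparison, so all 8 arrays with siPax8 RNA in Cy5 gave a positive and all 8 with it in Cy3 a negative value. Over the Cy3 arrays alone the mean against siScramble cells was -0.19 (adjusted p = 0.0029), which would have been called.

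**Figure D2:**
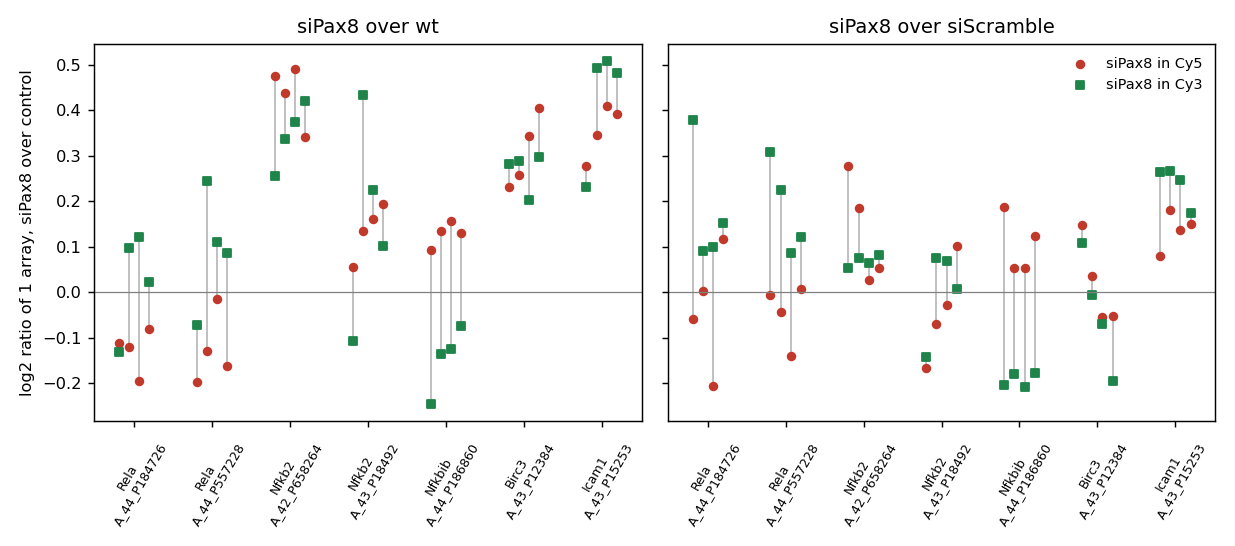
Log2 ratio of siPax8 over control cells on single arrays (vertical axis) for the 7 member probes, over wt (left) and over siScramble cells (right), with siPax8 RNA in Cy5 (red circles) or Cy3 (green squares) and a line joining the arrays of a replicate. For Nfkbib all Cy5 points lie above and all Cy3 points below 0, whereas for Icam1, Birc3 and the Nfkb2 probe A_42_P658264 both orientations against wt lie above 0.

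*Birc3* encodes a cIAP ubiquitin ligase that is recruited by TRAF proteins to tumour necrosis factor receptors and is itself a known NF-kappaB target (A_43_P12384, NM_023987). Its ratios to wt cells were 0.26, 0.27, 0.27 and 0.35, a mean of 0.29 ± 0.042 (SD, n = 4; 95% interval 0.22 to 0.36, adjusted p = 0.000125). All replicates, and all 8 arrays in either dye, were above 0. Its ratios to siScramble cells were 0.13, 0.015, -0.063 and -0.12, a mean of -0.011 ± 0.11 (SD, n = 4; 95% interval -0.11 to 0.090, adjusted p = 0.94). Here the replicates lay on both sides of 0. The normalized log2 intensity was 8.09 to 8.18 in wt cells, below all others, with 8.38 to 8.50 in siScramble cells and 8.34 to 8.51 in siPax8 cells over both comparisons, which overlapped.

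*Icam1* encodes a surface glycoprotein bound by leukocyte integrins and was measured by 1 probe printed at 10 spots per array (A_43_P15253, NM_012967). Against wt cells its log2 ratios were 0.25, 0.42, 0.46 and 0.44, a mean of 0.39 ± 0.093 (SD, n = 4; 95% interval 0.30 to 0.48, adjusted p = 8.86e-05). Replicate 1 was the lowest and the other replicates lay close together. The 10 spots gave means of 0.37 to 0.41, and all 80 single spot values were above 0. These spot values include 8 outlier spots that the ratios leave out.

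Against siScramble cells the *Icam1* ratios were 0.17, 0.22, 0.19 and 0.16, a mean of 0.19 ± 0.027 (SD, n = 4; 95% interval 0.13 to 0.25, adjusted p = 0.00604). All replicates were above 0, as were 79 of 80 single spot values (with 6 outlier spots included), but the adjusted p was just above the threshold. It passed when both comparisons were fitted together (adjusted p = 0.00443), when the 8 arrays entered the fit with a dye term and the replicate as a block (0.000556) or with the slide as a block (0.00031), and over the arrays with siPax8 RNA in Cy3 alone (0.24, adjusted p = 0.000967). It did not pass over those in Cy5 alone (0.14, limma adjusted p = 0.0674). Nor did it with the Agilent-processed intensities (adjusted p = 0.115) or with any 1 replicate left out (0.0176 to 0.0485). Of 18 alternatives tested, 13 left *Icam1* outside the threshold.

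The normalized log2 intensity of *Icam1* was 11.66 ± 0.065 in wt cells and 11.89 ± 0.058 in siScramble cells. In siPax8 cells it was 12.05 ± 0.041 beside wt and 12.08 ± 0.063 beside siScramble RNA (SD, n = 4). The levels were ordered wt, siScramble, siPax8, and over replicates these ranges (11.61 to 11.75, 11.85 to 11.97 and 12.01 to 12.17) did not overlap. *Icam1* was the only one of the 6 members with such an order, which 1.39% of all named genes had, and 0 members had the opposite order, which 1.53% had.

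*Vcam1*, which encodes a ligand of the integrin very late antigen and is absent or low in many resting epithelia (A_42_P499158, NM_012889), was well above background on 0 of 8 arrays in siPax8 cells and on 0 of 8 in control cells of each comparison. A ratio between such signals is not informative, and none is given for it.

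The difference between the ratios of the comparisons stands for siScramble over wt cells, which were not hybridized to each other. It was tested by limma as separate groups of 4, which takes no account of any siPax8 samples used in both comparisons. Of 6 members, 1 was called in this difference. In it 4.56% of named genes and 3.44% of probes were called. With same-numbered replicates paired (replicate block), 0 members were called. *Birc3* was 0.30 higher in siScramble than in wt cells (95% interval 0.18 to 0.42, adjusted p = 0.00499), a call that was lost by a small margin when same-numbered replicates were paired (replicate block, adjusted p = 0.00503). The *Nfkb2* probe A_42_P658264 was 0.29 higher (95% interval 0.20 to 0.37, adjusted p = 0.000935), while A_43_P18492 differed by 0.17 (adjusted p = 0.16). With the pairing their adjusted p-values by limma were 0.00178 and 0.0274. *Icam1* differed by 0.20 (95% interval 0.099 to 0.31, adjusted p = 0.0196), which did not pass, nor did it with the pairing (adjusted p = 0.0124). For *Rela* the differences were -0.12 (adjusted p = 0.183) and -0.086 (adjusted p = 0.412), and for *Nfkbib* 0.036 (adjusted p = 0.676).

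The ratios over wt cells of the called member probes kept their sign in every setting examined. The *Nfkb2* probe A_42_P658264 ranged from 0.35 to 0.44, *Birc3* from 0.27 to 0.40 and *Icam1* from 0.36 to 0.44. The arrays lay on 4 slides with 2 arrays of each comparison per slide, and within single slides the ratios were 0.30 to 0.45, 0.23 to 0.34 and 0.31 to 0.45. None of them passed the threshold with the intensities processed by the Agilent software (adjusted p of 0.00521, 0.00528 and 0.00824) or in an unmoderated test.

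**Figure D3:**
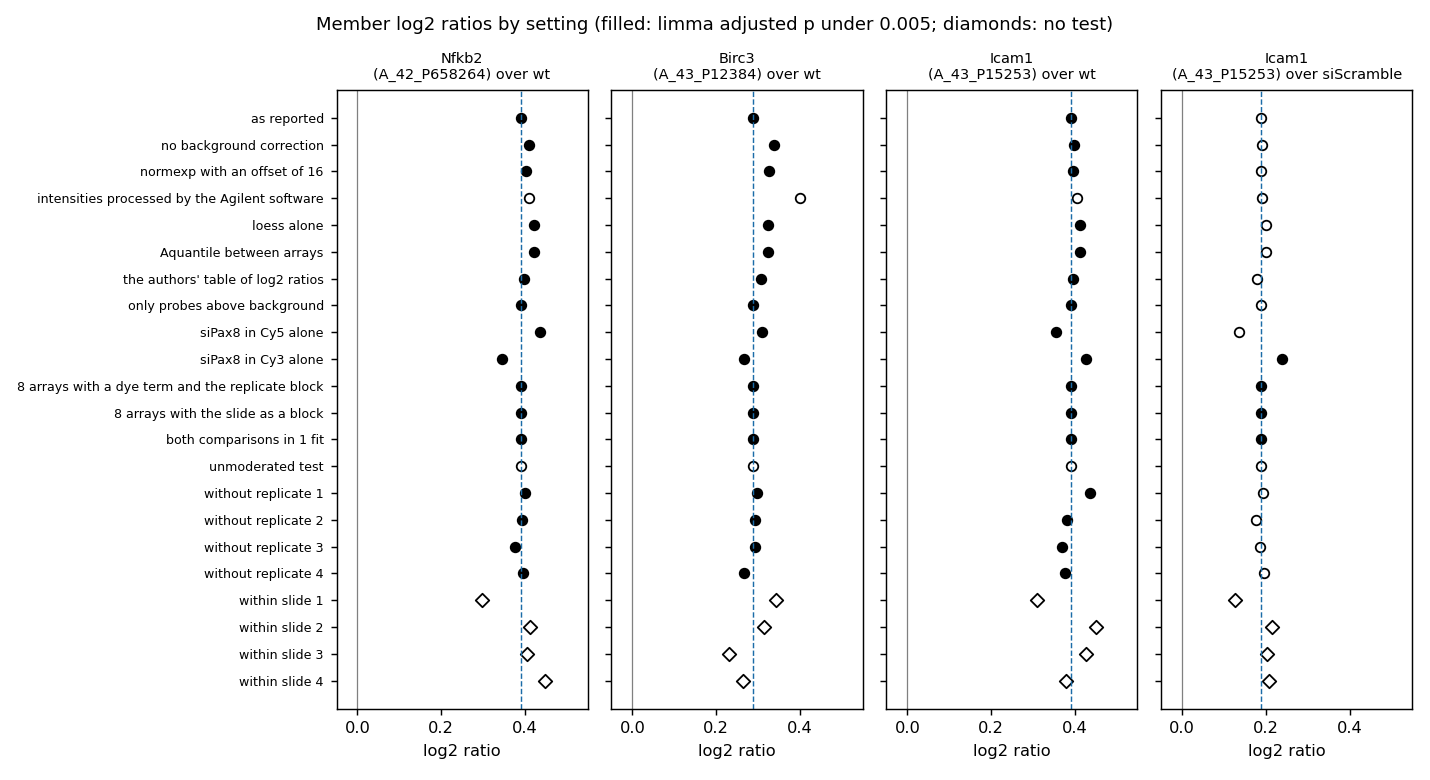
Log2 ratio (horizontal axis) of 3 member probes over wt and of Icam1 over siScramble cells in each setting (vertical axis), with the value as reported at the top and as a dashed line. Filled circles have a limma adjusted p under 0.005 (for the unmoderated test, its own adjusted p), open circles do not, and diamonds are values within a slide, without a test. The ratios over wt stay between 0.23 and 0.45 throughout, and Icam1 over siScramble between 0.13 and 0.24.

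A wider list of 114 other genes of the pathway and of leukocyte adhesion was examined beside the members, and 64 of them had a probe. Against wt cells 14 of the 64 were higher and 2 lower, and against siScramble cells 2 were higher and 1 lower, beside the same backgrounds of 16.7% and 2.99% of named genes. The median log2 ratio of the list was 0.016 against wt and 0.0078 against siScramble cells. *Ccl2* and *Csf1* were higher in both comparisons. *Ccl5* was called in both with opposite signs.

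Among the other targets, 24 genes had a probe, of which 6 were higher and 1 lower against wt cells. The monocyte chemokine *Ccl2* had ratios of 2.49, 2.38, 2.35 and 2.34 to wt (5.24-fold, adjusted p = 6.98e-09) and of 0.69, 0.64, 0.60 and 0.37 to siScramble cells (1.49-fold, adjusted p = 0.00134). It was well above background on 5 of 8 arrays in wt cells and on all arrays in siPax8 cells. *Csf1*, the macrophage growth factor, rose 1.71-fold and 1.76-fold by its 2 probes against wt and 1.46-fold and 1.52-fold against siScramble cells.

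The T cell and monocyte chemokine *Ccl5* had ratios of 1.19, 1.09, 1.29 and 1.22 to wt (adjusted p = 1.30e-07) and of -0.42, -0.47, -0.24 and -0.60 to siScramble cells (adjusted p = 0.00466). It was thus higher than in wt and lower than in siScramble cells in every replicate. *Cxcl10*, an interferon-inducible chemokine, had a ratio of 1.80 ± 0.21 to wt cells (SD, n = 4; adjusted p = 3.57e-07) and of 0.086 ± 0.19 to siScramble cells (adjusted p = 0.591). *Cxcl1*, a neutrophil chemokine, had ratios of 1.02 ± 0.15 (adjusted p = 1.96e-06) and 0.35 ± 0.13 (adjusted p = 0.00609), the latter just outside the threshold. *Ier3*, an immediate early survival gene, was lower than in wt cells by a ratio of -0.62 ± 0.059 (adjusted p = 2.16e-06), and its ratio to siScramble cells was -0.20 (adjusted p = 0.0146).

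Among 9 receptors with a probe, 3 were higher and 0 lower against wt cells. *Tnfrsf1b*, a receptor for tumour necrosis factor, had ratios of 0.76, 0.45, 0.62 and 0.55 (1.51-fold, adjusted p = 2.60e-05). *Tlr4*, the endotoxin receptor, was 1.33-fold higher (adjusted p = 2.03e-05), and the TWEAK receptor *Tnfrsf12a* 1.33-fold and 1.20-fold by its 2 probes. *Cd40*, a receptor of the tumour necrosis factor family named after its values were seen, was not called because its probes differed. Probe A_42_P666951, above background on all 8 arrays, gave -0.097, -0.18, -0.27 and -0.30 against wt cells (adjusted p = 0.0029), and A_44_P442823, above background on 1 of 8 arrays, gave a mean of -0.057 (adjusted p = 0.231). Against siScramble cells none of the 9 receptors was called, and the ratios of the 3 called genes ranged from 0.081 to 0.25.

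Of the 9 adaptors and ligases, 3 were higher and 1 lower against wt cells. *Birc2*, the paralogue of *Birc3*, had ratios of 0.30, 0.26, 0.23 and 0.22 (mean 0.25, adjusted p = 0.000237), close to those of *Birc3*, and of 0.039 to siScramble cells. *Bcl10*, an adaptor of the CARD complexes, was higher (0.20, adjusted p = 0.001), and *Rbck1*, a subunit of the linear ubiquitin ligase, was lower (-0.23, adjusted p = 0.000882). The IkappaB kinase gene *Ikbkb*, 1 of 2 kinases with a probe, was higher (0.21, adjusted p = 0.00154), with a mean of 0.36 in the Cy5 and 0.058 in the Cy3 orientation. *Ltb*, 1 of 9 ligands, was higher (0.19, adjusted p = 0.00162) from a signal that was well above background on 1 of 8 arrays in wt cells.

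No gene of the remaining groups was called in either comparison. These were the IkappaB family gene *Nfkbie*, with ratios of -0.14 to wt (adjusted p = 0.0571) and -0.28 to siScramble cells (adjusted p = 0.0168), and the feedback regulator *Tax1bp1*, both named after their values were seen. They also included 9 adhesion ligands and counter-receptors, among them the junctional adhesion gene *F11r* (-0.12 against wt, 0.065 against siScramble cells). Of these 9 only 2 were well above background on all arrays of a group. The endothelial selectin *Sele*, *Selp*, *Icam2* and the integrin subunits *Itgal* and *Itgam* that bind ICAM1 were not well above background on any array. These adhesion genes were also named after their values were seen.

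**Figure D4:**
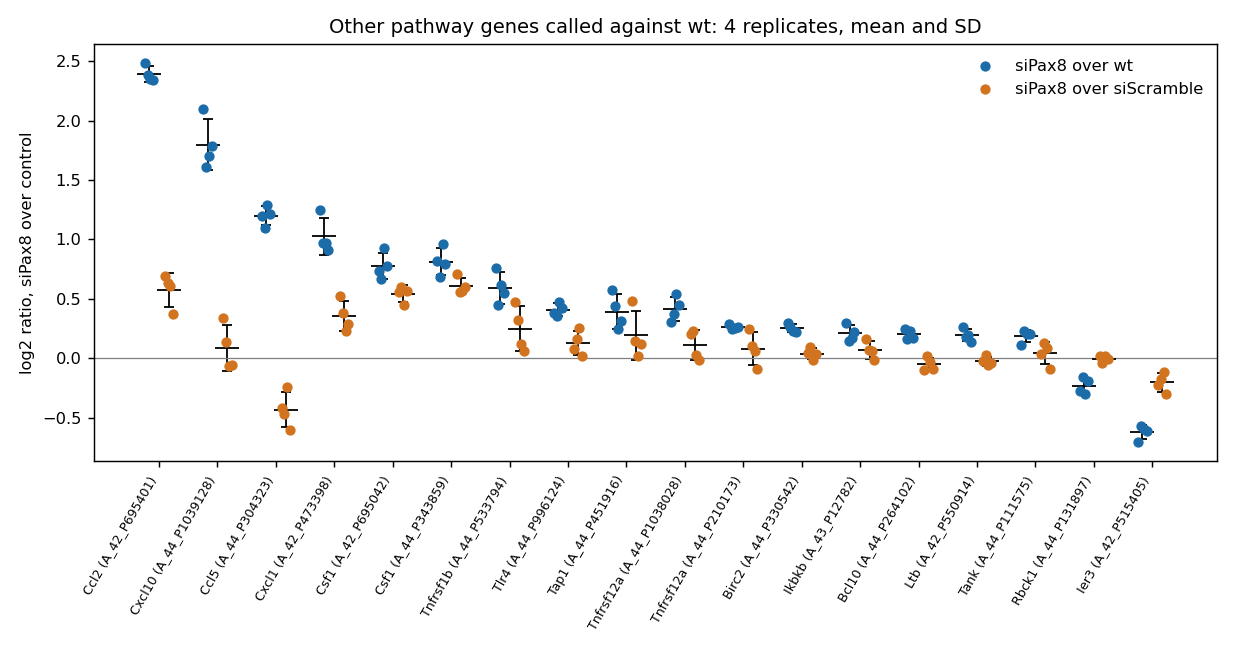
Log2 ratio of siPax8 over control cells (vertical axis) for the probes of the 16 wider pathway genes called against wt cells, with 1 point per replicate, the mean and 1 SD (n = 4), over wt (blue) and over siScramble (orange). Ccl2 and Cxcl10 have the highest ratios over wt (2.39 and 1.80), and Ccl5 lies above 0 over wt and below 0 over siScramble.

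In the difference between the comparisons, tested as separate groups, 7 of the 64 genes were higher and 1 lower in siScramble than in wt cells. There 4.56% of named genes were called in either direction. *Ccl2* was higher by 1.82 (adjusted p = 5.73e-07), *Cxcl10* by 1.71 (adjusted p = 9.14e-06), *Ccl5* by 1.63 (adjusted p = 7.52e-07) and *Cxcl1* by 0.67 (adjusted p = 0.000507). *Csf1* differed by 0.23 (adjusted p = 0.0248) and 0.21 (adjusted p = 0.0496), which did not pass.

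Markers of other cells were examined because leukocytes and endothelium also express these genes. Of 8 leukocyte markers 4 had a probe, and 3 (*Cd68*, *Cd74* and *Lyz2*) were above background. Against wt cells *Cd68* was higher (0.30, adjusted p = 0.000797) and *Cd74* lower (-1.01, adjusted p = 3.20e-07), and against siScramble cells *Cd74* was lower (-0.31, adjusted p = 0.00121). The summed intensity of the leukocyte probes was 754 to 852 in siPax8 and 1063 to 1289 in wt cells, and 743 to 808 beside 819 to 902 in siScramble cells. *Cd74* was the only marker in these sums called lower, and against wt cells *Cd68* went the other way, so the sums do not measure leukocyte content. None of the 3 endothelial markers with a probe, *Pecam1*, *Kdr* and *Emcn*, was above background on all arrays of a group, and their summed intensity was 247 to 269 in siPax8 and 251 to 274 in wt cells. Of 4 fibroblast markers only *Col1a2* was above background, and no fibroblast marker was called. The part of these levels in the changes of the members was not tested.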

How the data were processed

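For each array the authors deposited mean spot and median background intensities of Cy3 and Cy5, without normalization, and for all arrays a table of normalized log2 ratios. That table was used as an alternative. It correlated with the ratios computed here between -0.999 and -0.993, so it holds control over siPax8, and its column medians lay between -0.00011 and 0.0068. RNA was linearly amplified before labelling, so the ratios are those of amplified RNA. Images had been read with Feature Extraction 10.1.1.1 per the file headers. In R 4.3.3 with limma 3.58.1, background was corrected by normexp with an offset of 50, followed by loess for each array and quantile normalization of the channels of all arrays. Log2 ratios were averaged first across spots of a probe and then across the dye swap of a replicate. Outlier and control spots were left out. The 4 values per probe were tested against 0 (lmFit, eBayes) with Benjamini-Hochberg adjustment over 41012 probes at 0.005. Nothing in the labels says that the replicates came from separate cultures beyond calling them biological, so p-values measure the spread between these samples.

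Same-numbered arrays of opposite dye correlated in their deviations by 0.12 to 0.58, although for replicate 2 against wt cells the correlation with another number was higher (0.20 beside 0.12). Between the comparisons the correlations were 0.40, 0.18, 0.045 and 0.57, with 0.41 between replicate 3 and another number, and pairing was used only as an alternative. Gene names came from RefSeq accessions (GRCr8), which matched 10768 probes. The members and the gene and marker lists were chosen with earlier results of these data known. From the wider lists, genes called in both comparisons were named, and up to 3 per list of those called in 1. A marker gene of the thyroid list is not reported here. The procedure was tested on simulated data. Alternatives covered background correction, normalization, processed intensities, the authors' table, dim probes, dye, blocks by replicate and slide, averaging of probes, threshold, test and each replicate left out.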

Additional observations from a re-analysis of the deposited data

Results flagged for a closer look

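In the difference between the comparisons, which stands for siScramble over wt cells, *Birc3* (A_43_P12384) differed by 0.30 and the *Nfkb2* probe A_42_P658264 by 0.29 on the log2 scale, both past the threshold in limma (adjusted p of 0.00499 and 0.000935). With same-numbered replicates paired (replicate block) the *Nfkb2* probe remained past it (adjusted p = 0.00178) and *Birc3* did not (adjusted p = 0.00503). Among 54 sets of 4 replicate values of the members, *Pax8* and the called genes of the wider list, 0 had a replicate far from the others.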

How the results depend on the processing

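The number of members called against wt cells, 2, fell to 0 with the Agilent-processed intensities and in the unmoderated test. It rose to 3 with the probes of a gene averaged and at 0.05. Those called against siScramble cells rose from 0 to 1 with a dye term and the replicate block, with the slide as a block, with both comparisons in 1 fit and at 0.05, and to 2 with siPax8 in Cy3 alone. The 1 member called in the difference became 0 with an offset of 16, with Agilent-processed intensities, with either dye alone and with same-numbered replicates paired (replicate block), and 2 at 0.05. The number of wider pathway genes called against wt, 16, became 9 with Agilent-processed intensities, 11 with Cy3 alone, 23 at 0.05 and 0 in the unmoderated test. The 3 called against siScramble became 0 with Agilent-processed intensities and in the unmoderated test, 1 with Cy5 alone and 9 with Cy3 alone. They became 7 with the dye term and replicate block, with the slide block and at 0.05, and 5 with both comparisons in 1 fit. Over all probes, the 6260 called against wt became 1757 with Agilent-processed intensities, 3492 with Cy3 alone, 10743 at 0.05 and 2 unmoderated. The 867 against siScramble became 29 with Agilent-processed intensities, 215 with Cy5 alone, 3585 with Cy3 alone, 2196 with the replicate block, 2431 with the slide block, 1752 in 1 fit, 3673 at 0.05 and 0 unmoderated, where 6577 had an unadjusted p under 0.05. Leaving out each replicate gave 2 to 3 members, 11 to 16 pathway genes and 3375 to 6982 probes against wt, 0 members, 1 to 2 pathway genes and 119 to 412 probes against siScramble, and 0 to 1 members in the difference, which was lost without replicate 2, 3 or 4. The cause of these shifts was not tested.

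No called member changed sign. Of values near 0, *Nfkbib* over wt turned to 0.015 (loess alone, and Aquantile, which leaves ratios as loess does), 0.13 (Cy5) and 0.014 (without replicate 1), and over siScramble to 0.10 (Cy5). *Birc3* over siScramble turned to 0.027 (loess alone, Aquantile), 0.019 (Cy5), 0.0061 (without replicate 3) and 0.027 (without replicate 4). *Nfkb2* A_43_P18492 over siScramble turned to 0.011 (no background correction), 0.044 (Agilent-processed), 0.0023 (Cy3) and 0.026 (without replicate 1). *Rela* over wt turned to 0.028 and 0.092 (Cy3) and 0.023 (A_44_P557228, without replicate 1), and over siScramble to -0.037 and -0.046 (Cy5). Without each replicate in turn the lowest values were -0.020 for *Nfkbib* and -0.041 for *Rela* A_44_P557228 over wt, and -0.057 for *Birc3* and -0.044 for *Nfkb2* A_43_P18492 over siScramble. Low signal limits *Vcam1*, which was not well above background and was left out of these settings.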
